A study of Oryctolagus cuniculus with 20 samples.

Results

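The genes described here were sought in families that build and move along microtubules: kinesin and dynein motors with the dynactin complex, tubulins, centrosome proteins and components of the cilium. They were chosen by name from the study's own list of differentially expressed genes (DEGs), which was drawn up against non-treated rabbits on these same valves. Symbols of that list beginning with KIF, DYNC, DYNL, DNAH, DCTN, TUBA, TUBB, TUBG, IFT, CEP, BBS, TTC, CCDC or MAPRE, or made of MAP and digits, were taken, and KIF5B was left out. Of 79 such symbols, 75 had an identifier among the 23669 genes of the counts, and 74 of these 75 passed the filter on low counts with 8683 genes in all. Among the 74, 23 share a prefix with these families, but a role in microtubules is not what they are known for or is unclear. The members were therefore selected on the contrasts of each treatment with control, and their values in those contrasts are a description, not a test. Genes just outside the study's list have no symbol here and could not be shown.

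RNA was sequenced from the tricuspid valves of 20 adult female New Zealand white rabbits, 5 in each of 4 groups. Control rabbits drank water. The treated rabbits received by mouth for 16 weeks serotonin (80 mg/kg daily), the ergot derivative pergolide (0.5 mg/kg daily) or the amphetamine-like appetite suppressant dexfenfluramine (20 mg/kg daily). The doses are those of the sample labels, and the study's text is not uniform on that of dexfenfluramine. Each dose was given to a single group, so drug and dose cannot be told apart.

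Microtubules are polymers of alpha- and beta-tubulin that grow from gamma-tubulin complexes at the centrosome. Kinesins mostly carry cargo outwards along them, and cytoplasmic dynein, activated by dynactin, carries it back. In valve cells, as in most cells at rest, the older centriole of the centrosome can anchor a primary cilium, a sensory antenna that is built and emptied by intraflagellar transport (IFT) trains moving with kinesin and dynein, and cilia are known to take part in valve development.

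The total gene count of a valve lay between 3247091 and 5921025. A single gene without a symbol (ENSOCUG00000029084) held between 20.3% and 48.1% of the count, and within their groups its share was lowest in control replicate 3 (28.5%) and in dexfenfluramine replicate 3 (20.3%). These valves also had the lowest mean correlation with the other valves of their group (Pearson's r of log2 levels across genes, 0.953 and 0.946). Control replicate 4, at 0.955, was close to control replicate 3. Within their groups both replicate 3 valves stand apart in cardiomyocyte genes. The summed level of the 10 cardiomyocyte genes that could be looked up, in CPM (a valve's reads scaled to a common normalized library size), was 143165, 106937, 49589, 151897 and 97592 in the control valves. It was 53626, 104696, 60633, 97743 and 63958 after serotonin and 82661, 92438, 92933, 52918 and 48266 after pergolide. After dexfenfluramine it was 71156, 52746, 12540, 60792 and 71507. Thus replicate 3 was the lowest valve in the control group and in the dexfenfluramine group, and the control group had the highest mean, 109836 ± 40829 (SD, n = 5) against 53748 ± 24327 (SD, n = 5) after dexfenfluramine. The normalization factor, by which CPM is divided, was 1.25 in control replicate 3 and 0.584 to 0.823 in the other control valves. In dexfenfluramine replicate 3 it was 1.72, against 1.08 to 1.35 in the other valves of that group. It was 0.659 to 1.11 after serotonin and 0.990 to 1.26 after pergolide. The part of these factors in the levels was not tested. TTN was the most abundant of the 10 genes and 0 of the 10 were at 0 in all valves. The 10 genes have their symbols from the study's list, so they were selected on the contrasts with control, and their group means are a description. For genes picked by the naming rule, values without both replicate 3 valves are given below where leaving these out changed a call.

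Log2 fold changes come from edgeR's quasi-likelihood fit of all 20 valves, and a gene counts as called at a Benjamini-Hochberg adjusted p under 0.05 over all 8683 tested genes. Against control, 8 members were higher and 34 lower after pergolide, out of 74, beside 12.1% higher and 12.7% lower among all tested genes. After dexfenfluramine 14 were higher and 34 lower, beside 13.5% and 15.4%. After serotonin 1 was higher and 0 were lower, beside 1.04% and 0.150%, and 18 had an unadjusted p under 0.05, beside 15.8%. The 23 members that share only a prefix gave 1 of the higher and 10 of the lower with pergolide. They gave 4 and 13 with dexfenfluramine, and the 1 with serotonin. Of the 74 members, 18 were called for neither drug, though the study's list gave each member for at least 1 of the drugs. Most tested genes have no symbol here, and of the 3382 other tested genes with one, from the same list as the members, 28.5% were higher and 28.2% lower with pergolide, 32.1% and 34.1% with dexfenfluramine, and 1.48% and 0.148% with serotonin. Because the rule used these contrasts, nothing is read from the counts, here or in the groups of members below. The median log2 fold change of the 74 members was 0.08 after serotonin, -0.30 after pergolide and -0.28 after dexfenfluramine, and that of all tested genes was 0.01, 0.02 and 0.03. The groups did not overlap in 22 members for pergolide and control, beside 16.3% of all tested genes, and in 27 for dexfenfluramine and control, beside 17.0%. With surrogate variables in limma-voom 16 members were called for pergolide and 15 for dexfenfluramine, beside 13.3% and 11.4% of all tested genes in that fit. Without both replicate 3 valves 41 and 43 were called, beside 28.4% and 28.3%. By edgeR, the members nearest to the threshold were CCDC39 and CEP152 inside and CCDC162 and CEPT1 outside for pergolide, and CCDC141 and CEP85 inside and TUBGCP4 and MAP7 outside for dexfenfluramine. CEP152, -0.43 for pergolide, was not called in 19 of 32 other settings (-0.47 to -0.35), among them limma-voom (-0.43), a fit of only the 2 groups (-0.43), surrogate variables (-0.40), both replicate 3 valves left out (-0.36), and any 1 of control replicates 1, 2, 3 and 5 or of the 5 pergolide valves left out. In bulk tissue, fewer cells of a type and less RNA per cell cannot be told apart.

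**Figure D1:**
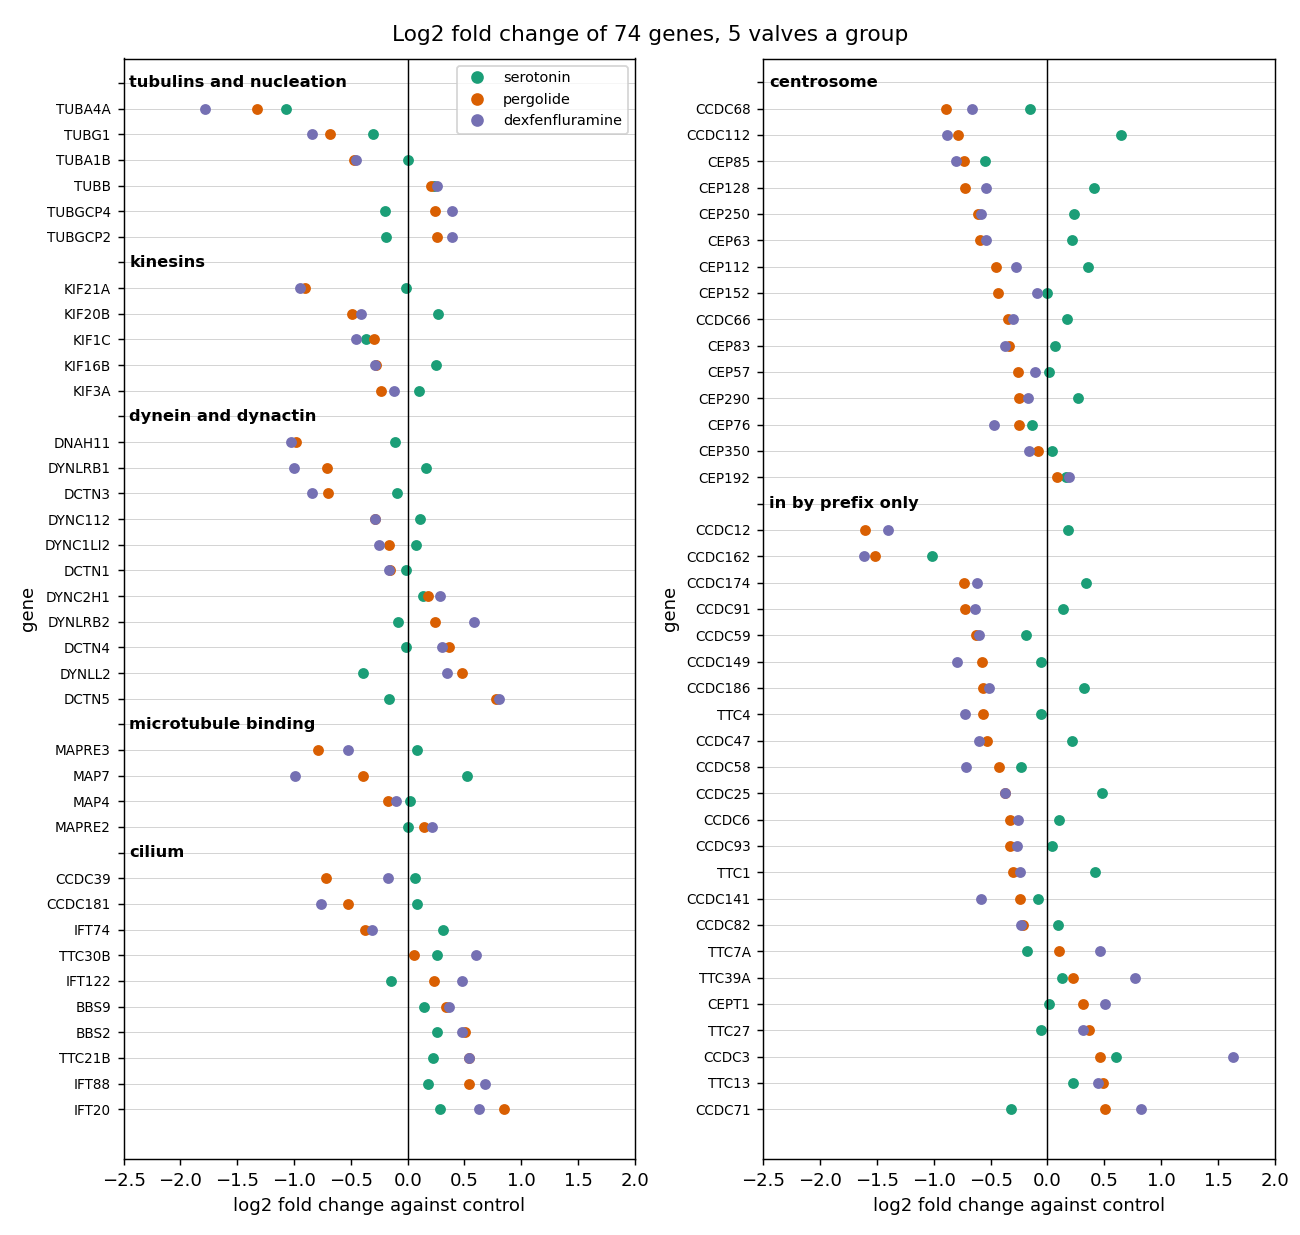
Log2 fold change against control of the 74 tested genes (x axis), 1 row a gene, grouped by role and ordered by the pergolide value. Points are serotonin, pergolide and dexfenfluramine, each from 5 treated and 5 control valves. In the centrosome group 14 of 15 genes lie below 0 for both drugs, while serotonin points lie above 0 in 11 (10 with the other normalizations).

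Among the tubulins and the gamma-tubulin complex, 6 members were tested and their values had no common sign. TUBA4A (ENSOCUG00000026994), an alpha-tubulin, had the lowest log2 fold changes of the group. Its level was 57.4, 45.8, 19.1, 42.1 and 33.8 CPM in control valves and 13.05, 16.5, 20.7, 20.9 and 21.9 CPM after serotonin. After pergolide it was 17.8, 22.9, 16.2, 12.5 and 8.36 CPM and after dexfenfluramine 14.2, 9.65, 5.58, 9.51 and 17.6 CPM. All dexfenfluramine valves lay below all control valves, while control replicate 3, low among controls, lay among the serotonin and pergolide valves. The log2 fold change of TUBA4A against control was -1.07 (SE 0.30) after serotonin, -1.33 (SE 0.29) after pergolide and -1.79 (SE 0.30) after dexfenfluramine. Without both replicate 3 valves it was -1.26, -1.52 and -1.81, and with surrogate variables -0.64 for pergolide and -0.75 for dexfenfluramine. TUBA4A and the summed cardiomyocyte genes were both lowest in dexfenfluramine replicate 3 and, among controls, in control replicate 3, and the part of those cells in the TUBA4A values was not tested.

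The other alpha-tubulin, TUBA1B (ENSOCUG00000004082), gave -0.47 (SE 0.19) after pergolide and -0.45 (SE 0.19) after dexfenfluramine, with neither called, but without control replicate 1 both were (-0.65 and -0.63), as with DESeq2 (-0.50 and -0.48) and with surrogate variables (-0.76 and -0.69). Alpha-tubulin genes are close copies in sequence, so reads may be split between them and their counts are uncertain. The beta-tubulin TUBB gave 0.20 for pergolide and 0.26 for dexfenfluramine, not called by edgeR, though dexfenfluramine was in 3 of 32 other settings (0.25 to 0.32). TUBG1 (ENSOCUG00000029248), the gamma-tubulin that nucleates microtubules, was lower with both drugs: 20.5 ± 4.76 CPM (SD, n = 5) in control valves, 12.6 ± 3.04 CPM (SD, n = 5) after pergolide and 11.3 ± 1.68 CPM (SD, n = 5) after dexfenfluramine. With surrogate variables TUBG1 gave -0.36 and -0.51, neither called. TUBGCP2 and TUBGCP4, which hold gamma-tubulin in its ring complex, had values of the opposite sign, 0.39 (SE 0.12) and 0.39 (SE 0.15) after dexfenfluramine, of which edgeR called TUBGCP2 alone. That call was lost in 3 of 32 other settings (0.31 to 0.36), and TUBGCP4 was called in 7 (0.38 to 0.47).

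All 5 kinesins had negative log2 fold changes with both drugs in edgeR, and 4 were called as lower for pergolide and 2 for dexfenfluramine, beside 12.7% and 15.4% of all tested genes. KIF21A (ENSOCUG00000016630), a kinesin that restrains microtubule growth at the cell edge, was the lowest of them. It measured 161, 116, 106, 135 and 114 CPM in control valves and 88.8, 190, 113, 141 and 90.7 CPM after serotonin. After pergolide it measured 78.9, 70.9, 73.3, 54.0 and 60.7 CPM and after dexfenfluramine 72.1, 62.6, 42.5, 64.5 and 85.8 CPM. Every valve of both drug groups lay below every control and serotonin valve. The log2 fold changes against control were -0.90 (SE 0.20) and -0.94 (SE 0.20), and -0.02 (SE 0.19) after serotonin, which was above 0 in 6 of 32 other settings (0.00 to 0.10). With surrogate variables KIF21A gave -0.46 for pergolide and -0.28 for dexfenfluramine, the latter not called. KIF21A was lowest of all valves in dexfenfluramine replicate 3 and, among controls, in replicate 3, and highest among controls in replicates 1 and 4, as the cardiomyocyte sum was. The part of those cells in the KIF21A values was not tested.

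KIF20B (ENSOCUG00000002468), which acts in cell division, gave -0.49 (SE 0.17) after pergolide and -0.41 (SE 0.17) after dexfenfluramine. Its pergolide call was lost on leaving out any 1 of control replicates 1, 2 and 3 or pergolide replicates 2, 3, 4 and 5 (-0.52 to -0.42), and without dexfenfluramine replicate 4 it was called for dexfenfluramine (-0.50). The pergolide call was also lost without both replicate 3 valves (-0.44), with surrogate variables (-0.31), with genes unfiltered (-0.47) and in a fit of only the 2 groups (-0.49). KIF16B, an endosome motor, gave -0.28 and -0.29, and KIF3A, a subunit of the motor that drives IFT trains outwards, -0.23 and -0.12. KIF16B lost its call in 9 of 32 other settings for pergolide (-0.29 to -0.11) and in 7 for dexfenfluramine (-0.29 to -0.15), and KIF3A lost its pergolide call in 12 (-0.25 to -0.18). KIF1C (ENSOCUG00000025068), a carrier of vesicles, was not called for either drug: -0.29 (SE 0.20) and -0.45 (SE 0.20). Its level was lowest in dexfenfluramine replicate 3, at 71.6 CPM, and lowest among controls in replicate 3, at 107 CPM, as the cardiomyocyte sum was, and with surrogate variables its log2 fold changes were 0.01 and 0.03. Without control replicate 3 it was called for dexfenfluramine (-0.58), as with 1 RUVr factor (-0.44), and without both replicate 3 valves for both drugs (-0.43 for pergolide and -0.45 for dexfenfluramine). The part of cardiomyocytes in this was not tested.

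The 11 dynein and dynactin members were divided. For dexfenfluramine 4 were higher and 5 lower (13.5% and 15.4% of all tested genes), and for pergolide 3 were higher and 4 lower (12.1% and 12.7%). Within dynactin, the arm-and-filament complex that activates dynein, the pointed-end subunits DCTN4 and DCTN5 were higher and the shoulder subunit DCTN3 was lower with both drugs. DCTN5 (ENSOCUG00000008470) measured 8.30, 7.86, 6.32, 7.94 and 6.21 CPM in control valves, 8.39, 2.85, 5.84, 5.63 and 9.27 CPM after serotonin, 13.8, 13.7, 8.22, 11.6 and 14.6 CPM after pergolide and 11.8, 12.2, 14.6, 12.7 and 12.02 CPM after dexfenfluramine. Dexfenfluramine valves lay above all control and serotonin valves, and pergolide replicate 3 lay just within the control range. The log2 fold change was 0.77 (SE 0.21) for pergolide and 0.80 (SE 0.21) for dexfenfluramine. With surrogate variables neither was called (0.75 and 0.72).

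DCTN3 (ENSOCUG00000000358) measured 33.9, 40.1, 33.2, 41.5 and 37.5 CPM in control valves and 32.4, 38.3, 34.5, 34.6 and 34.3 CPM after serotonin. It measured 23.0, 26.1, 20.0, 24.97 and 19.9 CPM after pergolide and 18.7, 20.5, 20.3, 21.1 and 23.2 CPM after dexfenfluramine. The drug groups lay wholly below the control and serotonin groups, with -0.70 (SE 0.10) for pergolide and -0.84 (SE 0.10) for dexfenfluramine. DCTN4 (ENSOCUG00000013510) gave 0.37 (SE 0.09) and 0.31 (SE 0.09). DCTN1 (ENSOCUG00000015231), the large arm subunit that binds both dynein and the microtubule, was not called, with -0.16 (SE 0.08) and -0.17 (SE 0.08). Without control replicate 5 DCTN1 was called for dexfenfluramine (-0.22) and DCTN4 was not (0.25). DCTN4 was also not called for dexfenfluramine in a fit of only the 2 groups (0.30), and with surrogate variables DCTN1 was 0.01 and 0.02.

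The light chains of dynein that clip cargo to the motor were also split between related genes. DYNLRB1 (ENSOCUG00000021027), a roadblock-type light chain, measured 37.5, 37.4, 30.02, 25.6 and 36.8 CPM in control valves and 34.9, 41.5, 36.2, 32.7 and 41.9 CPM after serotonin. It measured 22.6, 21.0, 20.9, 17.6 and 19.9 CPM after pergolide and 15.5, 15.5, 16.0, 16.8 and 19.7 CPM after dexfenfluramine. Both drug groups lay below both other groups. The second roadblock gene, DYNLRB2 (ENSOCUG00000008578), measured 10.5, 13.3, 8.95, 8.82 and 14.3 CPM in control valves and 13.5, 13.6, 8.18, 8.31 and 8.99 CPM after serotonin. It measured 10.5, 13.7, 13.9, 14.1 and 13.5 CPM after pergolide and 16.1, 17.6, 18.7, 17.9 and 13.5 CPM after dexfenfluramine. Its groups overlapped, and dexfenfluramine had 4 valves above the highest control valve. The log2 fold changes were -0.71 (SE 0.12) and -0.997 (SE 0.12) for DYNLRB1, and 0.24 (SE 0.17) and 0.58 (SE 0.17) for DYNLRB2. With surrogate variables DYNLRB1 gave -0.38 for pergolide, not called, and -0.66 for dexfenfluramine, and DYNLRB2 gave 0.56 for dexfenfluramine, not called. Without both replicate 3 valves DYNLRB2 gave 0.45 after dexfenfluramine and was not called.

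DYNLL2, a light chain of another type, was 0.48 (SE 0.13) for pergolide and 0.35 (SE 0.13) for dexfenfluramine, and -0.39 (SE 0.14) for serotonin. With surrogate variables its pergolide value was not called (0.50), and its dexfenfluramine value was called in 6 of 32 other settings (0.35 to 0.45). The cytoplasmic dynein subunit DYNC1LI2 and DYNC112, placed here by its prefix, were -0.25 and -0.29 after dexfenfluramine. DYNC112 is spelled as in the list it was taken from. That symbol was not found in RefSeq, so the gene it names is uncertain. DYNC2H1, heavy chain of the dynein that returns IFT trains, was 0.29. The call was lost in 12 of 32 other settings for DYNC1LI2 (-0.27 to -0.21), in 3 for DYNC2H1 (0.09 to 0.28) and with surrogate variables for DYNC112 (-0.20). DNAH11 (ENSOCUG00000013961), a heavy chain of the dynein arms of motile cilia, was -0.98 (SE 0.29) for pergolide and -1.02 (SE 0.29) for dexfenfluramine. It measured 62.4, 38.2, 27.9, 77.7 and 44.6 CPM in control valves, the highest being replicates 4 and 1 and the lowest replicate 3, as in the cardiomyocyte sum, whose part in this was not tested. After dexfenfluramine it measured 19.1, 18.96, 22.5, 34.9 and 26.6 CPM, and there replicate 3 was not the lowest. With surrogate variables DNAH11 gave -0.73 and -0.52, and neither was called. Its pergolide call was also lost without control replicate 4 (-0.78) and without pergolide replicate 4 (-0.84).

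**Figure D2:**
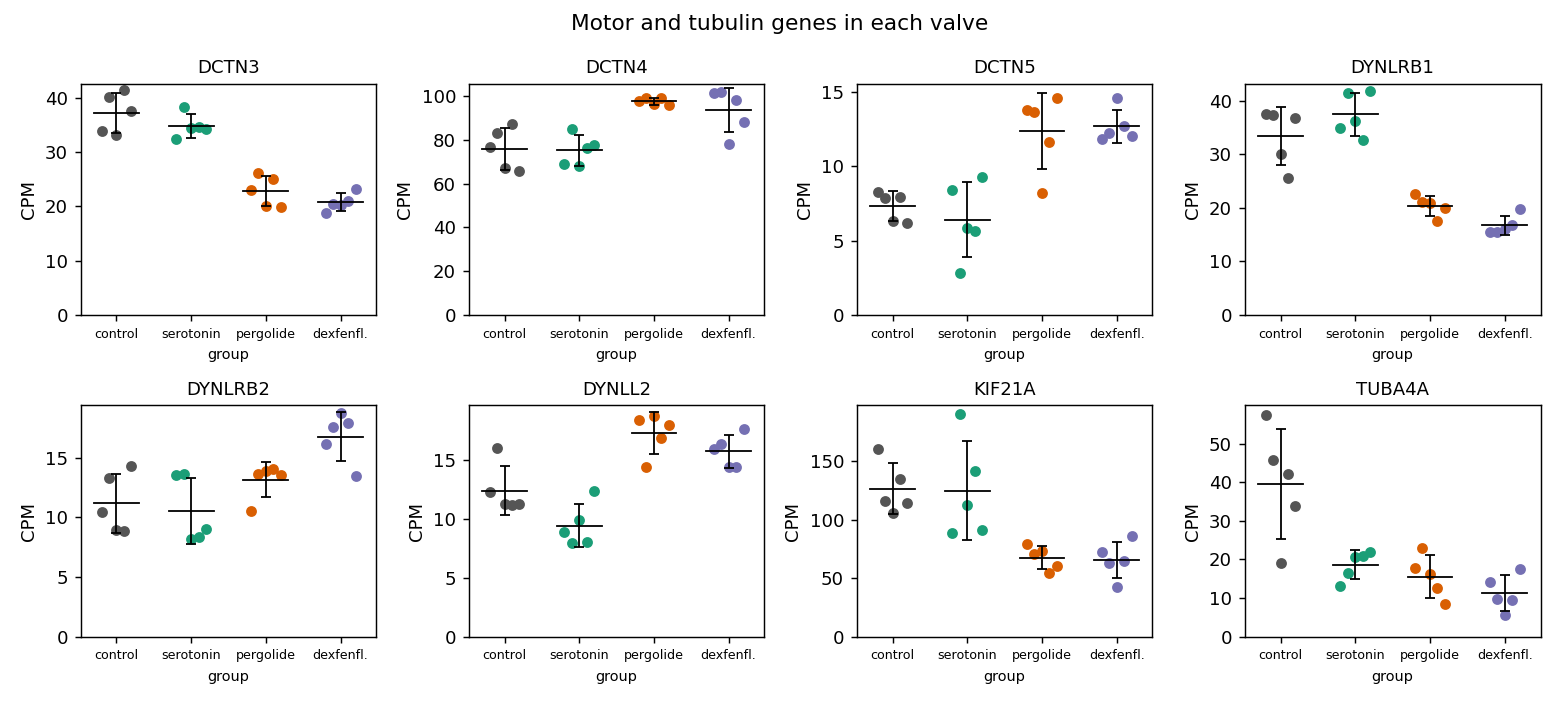
CPM of 8 motor and tubulin genes (y axis, from 0) in each valve of the 4 groups (x axis). Points are valves, lines are means and bars are SD of 5 valves. DCTN3 and DYNLRB1 sit lower in both drug groups than in control and serotonin valves, DCTN4 has a higher mean in both drug groups with overlap for dexfenfluramine, and TUBA4A varies widely among control valves.

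Of the 4 microtubule-binding members, MAPRE3 (ENSOCUG00000014861), which tracks growing microtubule ends, was called for both drugs, with -0.79 (SE 0.19) for pergolide and -0.53 (SE 0.19) for dexfenfluramine. Its dexfenfluramine value was not called in limma-voom (-0.45), nor on leaving out any 1 of control replicates 1, 2 and 5 or dexfenfluramine replicates 1, 3 and 4 (-0.56 to -0.37). It was also lost with upper-quartile normalization (-0.48), genes unfiltered (-0.52), the replicate block (-0.51) and a fit of only the 2 groups (-0.53). With surrogate variables MAPRE3 was called for neither drug (-0.45 for pergolide and -0.29 for dexfenfluramine). MAPRE3 was lowest in replicate 3 both among controls and among dexfenfluramine valves, as the cardiomyocyte sum was, whose part in this was not tested. MAP7 (ENSOCUG00000025456), which recruits kinesin to microtubules, gave -0.39 (SE 0.35) and -0.99 (SE 0.37), and 0.53 (SE 0.35) for serotonin, with none called. On leaving out any 1 of control replicates 1 and 5 or dexfenfluramine replicates 4 and 5 it was called for dexfenfluramine (-1.26 to -1.09), as with DESeq2 (-1.02), 1 RUVr factor (-1.01), DESeq2 size factors in edgeR (-1.005), the most abundant gene removed (-1.01), the replicate block (-1.04) and serotonin replicate 3 left out (-0.99). Its mean was 3.76 ± 1.79 CPM (SD, n = 5) in control valves, a level at which counting error weighs. MAP4, which stabilizes microtubules, gave -0.18 and -0.10 for the drugs, and MAPRE2 0.14 and 0.22, with none called by edgeR. MAP4 was called for pergolide in 3 of 32 other settings (-0.19 to -0.17), and MAPRE2 for dexfenfluramine with upper-quartile normalization (0.26).

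Of the 15 centrosome members, 10 were lower and 0 higher with pergolide, beside 12.7% and 12.1% of all tested genes and 28.2% and 28.5% of the other genes with a symbol. With dexfenfluramine 9 were lower and 0 higher, beside 15.4% and 13.5%, and 34.1% and 32.1%. CEP192, a scaffold of the material around centrioles, was the single member of the group above 0 for each drug (0.09 and 0.19). CEP192 was called for dexfenfluramine with 1 RUVr factor (0.19) and without control replicate 3 (0.27). With surrogate variables it was below 0 too (-0.07 and -0.03), and the counts above and below 0 were the same with DESeq2's size factors, upper-quartile normalization and the most abundant gene removed. CCDC112 (ENSOCUG00000016425), a protein of the particles around the centrosome, measured 22.4, 19.5, 31.2, 22.9 and 18.6 CPM in control valves and 32.6, 51.6, 25.1, 43.2 and 28.7 CPM after serotonin. It measured 6.90, 22.4, 12.01, 11.8 and 13.3 CPM after pergolide and 8.82, 13.1, 12.1, 12.7 and 15.5 CPM after dexfenfluramine. Dexfenfluramine valves lay below all control valves, pergolide replicate 2 lay within the control range, and serotonin valves lay above both drug groups. The log2 fold changes were -0.79 (SE 0.25) for pergolide, -0.88 (SE 0.25) for dexfenfluramine and 0.65 (SE 0.24) for serotonin. Without both replicate 3 valves they were -0.64 and -0.73 for the drugs, and with surrogate variables -0.71 and -0.66, and none of these was called. The pergolide call was lost without control replicate 3, pergolide replicate 1 or pergolide replicate 4 (-0.75 to -0.63).

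CEP250, CEP63 and CEP128 and the other members outside the naming rule were picked after their values were seen. CEP250, which ties the centrioles to each other, and CEP63, which helps to start a new centriole, had little spread within the drug groups. CEP250 was 76.7 ± 12.1 CPM (SD, n = 5) in control valves, 50.3 ± 2.12 CPM (SD, n = 5) after pergolide and 51.0 ± 5.19 CPM (SD, n = 5) after dexfenfluramine. CEP63 was 75.6 ± 9.74, 50.1 ± 3.42 and 51.8 ± 4.18 CPM (SD, n = 5 each) in the same groups. In both genes all drug-treated valves lay below all control valves, and CEP63 was not called for dexfenfluramine with surrogate variables (-0.37). CEP128, of the centriole's appendages, was -0.73 and -0.54 for the drugs and 0.41 for serotonin, with the pergolide call lost with surrogate variables (-0.55) and the dexfenfluramine call in 6 of 32 other settings (-0.52 to -0.38). CCDC68 (ENSOCUG00000014516), also of the appendages, was -0.89 (SE 0.23) and -0.67 (SE 0.23), and its dexfenfluramine call was lost on leaving out any 1 of control replicates 3 and 4 or dexfenfluramine replicates 2, 3, 4 and 5 (-0.67 to -0.54), without both replicate 3 valves (-0.51) and with surrogate variables (-0.74).

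CEP85 (ENSOCUG00000016916), a centrosome protein that limits centriole separation, had the lowest serotonin value of the group, -0.55 (SE 0.30). It measured 62.0, 42.3, 25.3, 71.8 and 50.9 CPM in control valves and 23.3, 46.8, 30.7, 47.7 and 22.8 CPM after serotonin. It measured 33.5, 36.1, 36.2, 20.8 and 23.8 CPM after pergolide and 37.0, 33.1, 11.7, 29.4 and 31.9 CPM after dexfenfluramine. The groups overlapped, and the lowest valve of the control group and of the dexfenfluramine group was replicate 3, as in the cardiomyocyte sum. The log2 fold changes were -0.73 (SE 0.29) for pergolide, not called, and -0.80 (SE 0.29) for dexfenfluramine. With surrogate variables the dexfenfluramine value was -0.05, and without both replicate 3 valves it was -0.79. Leaving out any 1 of control replicates 1, 4 and 5 or dexfenfluramine replicates 2, 3, 4 and 5 ended the dexfenfluramine call (-0.86 to -0.60), as did limma-voom (-0.78), a fit of only the 2 groups (-0.81) and leaving out serotonin replicate 3 or pergolide replicate 1 (-0.81 each). For pergolide CEP85 was called without control replicate 3 (-0.91), without both replicate 3 valves (-0.92), without dexfenfluramine replicate 3 (-0.73), with DESeq2 (-0.76) and with 1 RUVr factor (-0.69), and for serotonin with 1 RUVr factor (-0.52). The part of cardiomyocytes in the CEP85 values was not tested. In 10 of the 75 members the lowest control valve and the lowest dexfenfluramine valve were both replicate 3, namely CCDC141, CCDC149, CCDC162, CCDC58, CEP76, CEP85, KIF1C, KIF21A, MAPRE3 and TUBA4A. The share of all tested genes with this pattern was not counted, so nothing is read from the count of members.

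**Figure D3:**
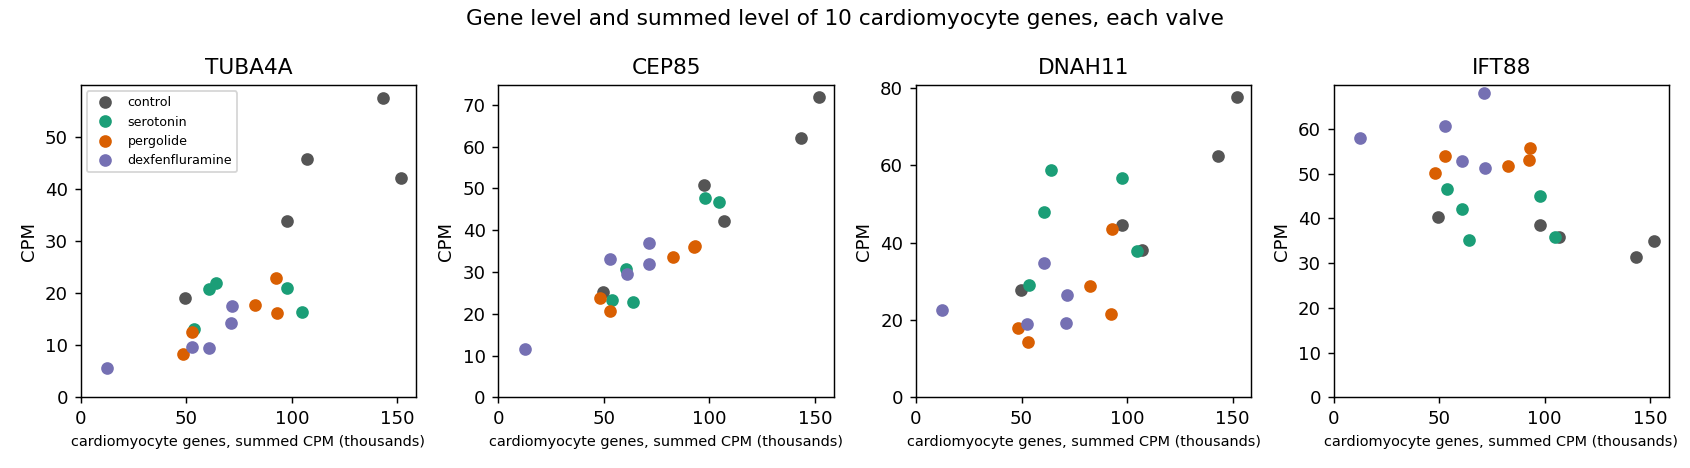
CPM of TUBA4A, CEP85, DNAH11 and IFT88 (y axes, from 0) and the summed CPM of 10 cardiomyocyte genes (x axis, in kilo-CPM) for each of the 20 valves, coloured by group. The genes were picked for display after their values were seen. TUBA4A and CEP85 are lowest in the valve with the lowest sum, dexfenfluramine replicate 3, and IFT88 is not.

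The 10 tested cilium members had values of both signs with the drugs, with 4 higher and 3 lower for pergolide (12.1% and 12.7% of all tested genes) and 5 higher and 2 lower for dexfenfluramine (13.5% and 15.4%). IFT88 (ENSOCUG00000003414), a core subunit of the outward IFT train needed to build a cilium, measured 31.4, 35.8, 40.2, 35.0 and 38.4 CPM in control valves and 46.6, 35.8, 42.1, 45.0 and 35.1 CPM after serotonin. It measured 51.7, 53.1, 55.6, 54.0 and 50.2 CPM after pergolide and 68.0, 60.7, 58.0, 52.9 and 51.3 CPM after dexfenfluramine. All drug-treated valves lay above all control and serotonin valves, and the log2 fold changes were 0.54 (SE 0.10) and 0.68 (SE 0.10). With surrogate variables IFT88 gave 0.30 and 0.43, the first not called. IFT20 (ENSOCUG00000007773), the IFT subunit that also sits at the Golgi, measured 7.94, 6.503, 7.37, 7.65 and 5.29 CPM in control valves and 5.82, 10.1, 10.2, 9.12 and 7.02 CPM after serotonin. It measured 12.6, 12.3, 13.7, 11.4 and 12.3 CPM after pergolide and 11.8, 11.2, 10.1, 8.39 and 12.02 CPM after dexfenfluramine. Both drug groups lay above control, the dexfenfluramine group by a narrow gap, with 0.85 (SE 0.16) and 0.63 (SE 0.16).

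IFT74 (ENSOCUG00000001320), of the same outward train as IFT88 and IFT20, had the opposite sign. It measured 45.5, 51.8, 66.9, 47.9 and 52.2 CPM in control valves and 77.6, 68.4, 60.5, 62.5 and 59.8 CPM after serotonin. It measured 39.3, 44.1, 39.4, 42.7 and 38.8 CPM after pergolide and 42.0, 37.6, 48.8, 42.5 and 42.3 CPM after dexfenfluramine. Pergolide valves lay below all control valves, dexfenfluramine valves overlapped with control, and serotonin valves lay above both drug groups. The log2 fold changes were -0.38 (SE 0.10), -0.32 (SE 0.10) and 0.31 (SE 0.10) for pergolide, dexfenfluramine and serotonin. The dexfenfluramine call was lost without control replicate 3 (-0.21) and without dexfenfluramine replicate 2 (-0.27), and also with upper-quartile normalization (-0.27), genes unfiltered (-0.31) and a fit of only the 2 groups (-0.32). For serotonin IFT74 was not called by edgeR, but was without control replicate 3 (0.41), without both replicate 3 valves (0.41) and with 1 RUVr factor (0.32).

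Of the inward train, IFT122 (ENSOCUG00000013015) was 0.24 (SE 0.13) for pergolide, not called, and 0.47 (SE 0.13) for dexfenfluramine. Without pergolide replicate 1, its lowest pergolide valve at 24.1 CPM, IFT122 was called for pergolide (0.34). With surrogate variables it was called for neither drug, at -0.05 for pergolide and 0.07 for dexfenfluramine. TTC21B, a further subunit of that train, was 0.54 (SE 0.10) and 0.54 (SE 0.10), and all drug-treated valves lay above all control valves. BBS2, of the complex that moves membrane proteins in and out of cilia, was 0.50 (SE 0.10) and 0.48 (SE 0.10). With surrogate variables no drug value of TTC21B (0.25 and 0.27) or BBS2 (0.36 and 0.32) was called. BBS9 of the same complex was 0.34 and 0.36, neither called by edgeR, and was called with 1 RUVr factor for both (0.35 and 0.37) and for dexfenfluramine without control replicate 5 or dexfenfluramine replicate 5 (0.43 and 0.44).

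Among proteins of motile cilia, CCDC181 (ENSOCUG00000000852) was -0.53 (SE 0.14) for pergolide and -0.77 (SE 0.14) for dexfenfluramine. With surrogate variables its pergolide value was not called (-0.47). CCDC39 (ENSOCUG00000000812), which sets the spacing of parts along motile cilia, was -0.72 (SE 0.25) and -0.18 (SE 0.25), and its pergolide call was lost in limma-voom (-0.73) and without both replicate 3 valves (-0.62). It was also lost on leaving out any 1 of control replicates 2, 3 and 5 or pergolide replicates 1, 2, 3 and 5 (-0.74 to -0.57), with surrogate variables (-0.45), upper-quartile normalization (-0.70), genes unfiltered (-0.70), the replicate block (-0.65), a fit of only the 2 groups (-0.71), and serotonin replicate 1 or 5 or dexfenfluramine replicate 2 left out (-0.72 to -0.71). The list of multiciliated epithelium markers had 0 genes that could be looked up, so the presence of motile cilia was not checked.

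TTC30B (ENSOCUG00000011537) and TTC30A (ENSOCUG00000008034) encode near-identical IFT subunits, so reads may be split between them and both are uncertain. TTC30B measured 3.97, 6.77, 3.69, 5.00 and 2.99 CPM in control valves and 6.99, 3.80, 5.55, 3.22 and 6.74 CPM after serotonin. It measured 4.21, 4.95, 5.48, 2.99 and 5.51 CPM after pergolide and 6.02, 6.55, 6.12, 6.90 and 8.01 CPM after dexfenfluramine. Its values overlapped between control and each treatment. For dexfenfluramine TTC30B was 0.60 (SE 0.24), not called, but called without control replicate 2 (0.79), in limma-voom (0.65), with upper-quartile normalization (0.64) and with at least 10 counts in all valves (0.60). For pergolide it was 0.06 (SE 0.25), which was below 0 without control replicate 3 or 5 or pergolide replicate 3 or 5 (-0.08 to -0.00) and without both replicate 3 valves (-0.02). TTC30A, the member that did not pass the filter, had 11, 8, 10, 11 and 4 reads in control valves, 10, 7, 3, 4 and 10 after serotonin, 9, 1, 4, 1 and 6 after pergolide and 6, 9, 3, 7 and 13 after dexfenfluramine.

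**Figure D4:**
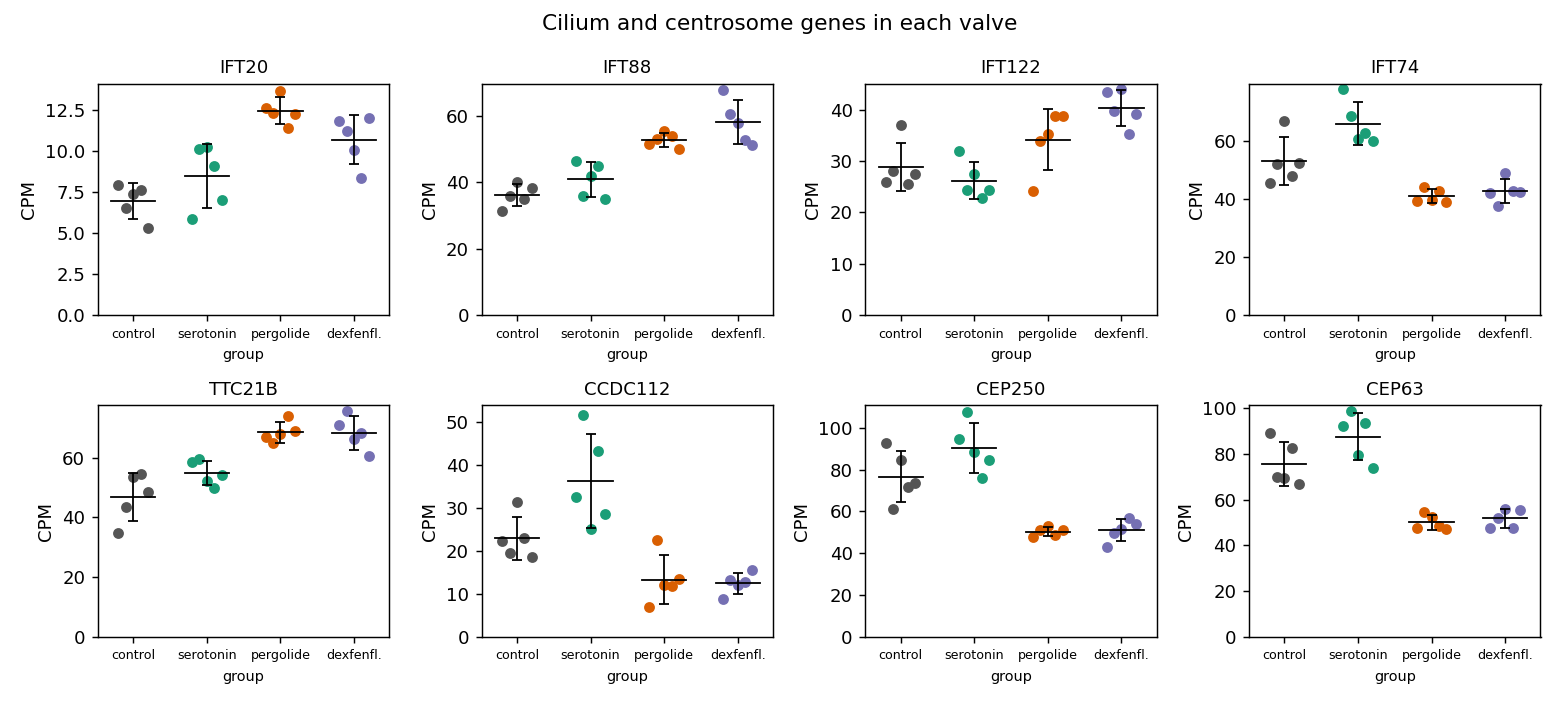
CPM of 5 cilium and 3 centrosome genes (y axis, from 0) in each valve of the 4 groups (x axis). Points are valves, lines are means and bars are SD of 5 valves. IFT20, IFT88 and TTC21B sit above control in all drug-treated valves, while CEP250 and CEP63 sit below control in all of them.

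A further 23 members share a prefix with these families, but a role in microtubules is not what they are known for or is unclear. Of these, 1 was higher and 10 lower after pergolide (12.1% and 12.7% of all tested genes), and 4 were higher and 13 lower after dexfenfluramine (13.5% and 15.4%). CCDC12 (ENSOCUG00000012431), a protein of the splicing machinery, was 24.5, 12.2, 15.8, 19.1 and 9.66 CPM in control valves and 14.4, 29.8, 9.35, 20.1 and 17.7 CPM after serotonin. It was 3.45, 5.98, 6.95, 5.28 and 4.63 CPM after pergolide and 7.96, 4.14, 5.22, 7.45 and 5.61 CPM after dexfenfluramine. All drug-treated valves lay below all control and serotonin valves, with -1.61 (SE 0.29) and -1.41 (SE 0.29). With surrogate variables the dexfenfluramine value of CCDC12 was not called (-0.94). CEPT1, a phospholipid enzyme, was 0.31 and 0.50, and CCDC47, a protein of the endoplasmic reticulum, -0.53 and -0.60. With surrogate variables CEPT1 was not called for dexfenfluramine (0.36), and for pergolide it was called in 2 of 32 other settings (0.31 to 0.38). CCDC162 (ENSOCUG00000006035) was low, with -1.52 (SE 0.57) for pergolide, not called, and -1.62 (SE 0.58) for dexfenfluramine. For pergolide CCDC162 was called without control replicate 3 or pergolide replicate 2 (-2.14 to -1.77), without both replicate 3 valves (-1.78), with DESeq2 (-1.57), limma-voom (-2.22) and 1 RUVr factor (-1.54). The dexfenfluramine call was lost on leaving out any 1 of control replicates 1, 2, 4 and 5 or dexfenfluramine replicates 1, 2, 3 and 4 (-1.70 to -1.39), in limma-voom (-1.52) and with the replicate block (-1.60). With surrogate variables the dexfenfluramine value of CCDC162 was -0.30, not called.

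CCDC3 (ENSOCUG00000002994), a secreted protein, had the highest log2 fold change of the members for dexfenfluramine. It measured 0.721, 1.08, 0.702, 0.294 and 1.61 CPM in control valves and 0.699, 0.633, 3.51, 1.61 and 0.562 CPM after serotonin. It measured 0.958, 1.03, 1.26, 1.76 and 1.25 CPM after pergolide and 0.861, 3.79, 3.24, 2.80 and 3.37 CPM after dexfenfluramine. Dexfenfluramine replicate 1 lay within the control range and the other dexfenfluramine valves above all control valves. The log2 fold change was 1.63 (SE 0.46) for dexfenfluramine, 0.46 (SE 0.52) for pergolide and 0.60 (SE 0.54) for serotonin, the last of which was -0.03 without serotonin replicate 3. With surrogate variables the dexfenfluramine value was 1.51, not called.

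The study's list gave TUBA4A, CEP85, IFT74, CCDC47, TTC1 and CCDC25 for serotonin, and edgeR did not call the others of these here. With serotonin the single member called was CCDC25 (ENSOCUG00000009924), named here after its values were seen. CCDC25 had a log2 fold change of 0.48 (SE 0.12), which the rule used and which supports nothing. It measured 28.5, 32.8, 29.7, 34.4 and 30.8 CPM in control valves and 46.6, 50.0, 43.0, 36.5 and 42.4 CPM after serotonin. It measured 26.8, 22.6, 30.3, 17.9 and 23.3 CPM after pergolide and 21.3, 22.4, 26.3, 24.8 and 25.6 CPM after dexfenfluramine. All serotonin valves lay above all control valves, and CCDC25 had values of the opposite sign with the drugs, -0.37 (SE 0.12) and -0.37 (SE 0.12), lost in 6 (-0.37 to -0.28) and 4 (-0.35 to -0.28) of 32 other settings. For serotonin it was called in 8 of 32 other settings. Leaving out any 1 of the control or serotonin valves ended the call, with log2 fold changes from 0.43 to 0.54 over the 32 settings. Without both replicate 3 valves 5 members were called, beside 5.53% of all tested genes. TUBA4A (-1.07) was not called by edgeR, but was without control replicate 3 (-1.26), without both replicate 3 valves (-1.26), without dexfenfluramine replicate 3 (-1.07), with DESeq2 (-1.10) and with 1 RUVr factor (-1.01).

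The drugs were also set against serotonin, a contrast that the rule did not use but that shares the treated valves by which members were selected. Against serotonin, 11 members were higher and 35 lower with pergolide, beside 12.4% and 15.1% of all tested genes, and 13 were higher and 37 lower with dexfenfluramine, beside 13.9% and 16.4%. Of the other tested genes with a symbol, 22.1% were higher and 25.5% lower with pergolide, and 25.3% and 28.1% with dexfenfluramine. In the centrosome group 11 of 15 were lower with pergolide and 10 of 15 with dexfenfluramine. CCDC112 was -1.44 (SE 0.24) with pergolide and -1.53 (SE 0.25) with dexfenfluramine, CEP128 was -1.13 (SE 0.18) and -0.95 (SE 0.17), and IFT74 was -0.69 (SE 0.10) and -0.63 (SE 0.10). DCTN5 was 0.94 and 0.97, and DYNLL2 0.87 and 0.74. TUBA4A, low in serotonin valves too, was -0.26 (SE 0.30) and -0.71 (SE 0.31), with neither called by edgeR, but the latter was with 1 RUVr factor (-0.77) and without dexfenfluramine replicate 5 (-0.94). With surrogate variables CEP128 (-0.65) and DCTN5 (0.93) were not called for dexfenfluramine.

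Dexfenfluramine was compared with pergolide directly, although the doses differ and both groups took part in choosing the members. By edgeR's quasi-likelihood test 0 of the 74 members differed, beside 0% of all tested genes, and 6 had an unadjusted p under 0.05, beside 7.06% of all tested genes. The count of members was also 0 with DESeq2, limma-voom, limma-voom with surrogate variables and 1 RUVr factor, and over 32 settings between 2 and 11 had an unadjusted p under 0.05. Over all tested genes DESeq2 called 4 and the fit with 1 RUVr factor 127. The median difference of the members was 0.03 on the log2 scale. The 95% interval of the difference lay wholly between -0.5 and 0.5 in 46 members and between -1 and 1 in 67. The groups did not overlap in 1 member, TTC30B, beside 1.43% of all tested genes.

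The members with an unadjusted p under 0.05 included both roadblock light chains. For dexfenfluramine minus pergolide the log2 difference was -0.28 (95% interval -0.53 to -0.04) in DYNLRB1 and 0.35 (95% interval 0.01 to 0.69) in DYNLRB2, with adjusted p = 0.685 and 0.703 in edgeR. TTC30B differed by 0.54 (95% interval 0.07 to 1.01), with adjusted p = 0.685. Its highest pergolide valve was at 5.51 CPM and its lowest dexfenfluramine valve at 6.02 CPM, and its counts may include those of TTC30A. CEP152 (ENSOCUG00000006424), a centriole duplication protein, differed by 0.34 (95% interval 0.02 to 0.66), and CCDC39 by 0.54 (95% interval 0.02 to 1.06). CCDC3 had the largest difference, 1.17 (95% interval 0.32 to 2.02), and dexfenfluramine replicate 1, at 0.861 CPM, lay below all pergolide valves while the others lay above them. None of these passed the adjustment. For KIF21A the difference was -0.04 (95% interval -0.45 to 0.37), for IFT88 0.14 (95% interval -0.06 to 0.33), for DCTN3 -0.13 (95% interval -0.34 to 0.07) and for CCDC112 -0.09 (95% interval -0.62 to 0.43). KIF21A was above 0 in 4 of 32 other settings, with surrogate variables (0.19), without both replicate 3 valves (0.08) and without dexfenfluramine replicate 3 (0.08) or pergolide replicate 1 (0.02). CCDC112 was above 0 with surrogate variables (0.06), without pergolide replicate 2 (0.18) and without dexfenfluramine replicate 1 (0.00).

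**Figure D5:**
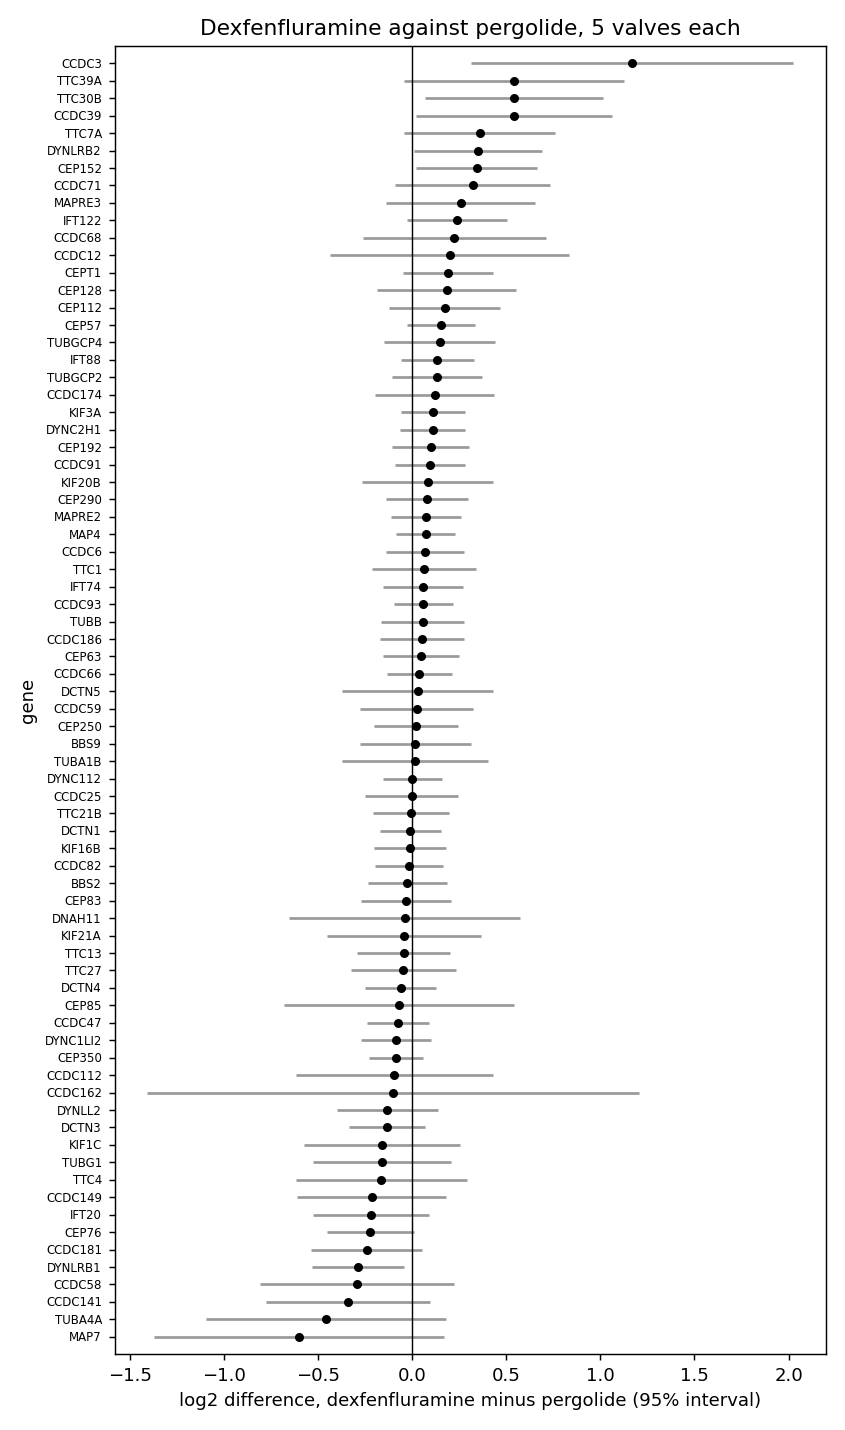
Log2 difference of dexfenfluramine minus pergolide (x axis) for the 74 tested genes (y axis), 5 valves a group. Points are the fitted differences and lines the 95% intervals. The interval holds 0 in 68 genes, which restates an unadjusted p not under 0.05 in edgeR, and CCDC3 has the largest difference at 1.17.

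Other genes of the same machinery were taken from lists of 188 symbols, of which 50 without membership could be looked up. Symbols come from the study's list alone, so these genes too were selected on the contrasts with control, and their counts are a description. With pergolide 10 were higher and 19 lower, beside 12.1% and 12.7% of all tested genes and 28.5% and 28.2% of the tested genes with a symbol that are not members. With dexfenfluramine 17 were higher and 19 lower, beside 13.5% and 15.4%, and 32.1% and 34.1%. With serotonin 2 were higher and 0 lower, beside 1.04% and 0.150%, and 1.48% and 0.148%. Their median log2 fold changes were -0.25, -0.00 and 0.11, beside 0.02, 0.03 and 0.01 in all tested genes. Nothing is read from these counts or from those of the single lists below, for which the same shares hold. The genes named from these lists were chosen after their values were seen.

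Among 13 centrosome genes, 7 were lower and 2 higher with pergolide, and 7 lower and 3 higher with dexfenfluramine. CETN3, a centrin of the centriole, was -0.81 and -0.69, and 0.46 with serotonin. CNTLN, a linker between centrioles, was -0.42 and -0.60, and 0.43 with serotonin. PCNT and AKAP9, scaffolds of the centrosome, were -0.33 and -0.44 with pergolide. HAUS4 and HAUS6, of the augmin complex that branches microtubules, were 0.57 and 0.35. The serotonin call of CETN3 was lost in 15 of 32 other settings (0.30 to 0.48) and that of CNTLN in 9 (0.33 to 0.44). The pergolide call of HAUS4 was lost in 16 (0.36 to 0.60), that of HAUS6 in 4 (0.13 to 0.33), and those of PCNT (-0.11) and AKAP9 (-0.27) with surrogate variables.

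Among 7 genes of motor adaptors and regulators, 2 were higher and 2 lower with each drug. ACTR10, the actin-related protein at the pointed end of dynactin next to DCTN4 and DCTN5, was 0.82 with pergolide and 0.77 with dexfenfluramine. NDEL1, a dynein regulator, was -0.27 and -0.32. Of 8 genes of microtubule dynamics, 4 were lower with pergolide and 5 lower and 1 higher with dexfenfluramine. The tubulin-folding factors TBCA and TBCC were -0.56 and -1.18 with pergolide, and with surrogate variables neither was called (-0.42 and -0.72).

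Of 16 further cilium genes, 4 were higher and 6 lower with pergolide, and 6 higher and 5 lower with dexfenfluramine. WDR35 of the inward IFT train and RFX3, a regulator of ciliary genes, were 0.62 and 0.69 with dexfenfluramine, while RPGR, of the gate at the cilium's base, was -0.49. With surrogate variables WDR35 (0.33) and RPGR (-0.37) were not called. Hedgehog signals are received in the primary cilium. Of the 6 genes of that pathway with a symbol, 2 were higher with pergolide and 5 with dexfenfluramine, with 0 lower, beside 28.5% and 32.1% higher among the other genes with a symbol and 12.1% and 13.5% among all tested genes, and nothing is read from this count. The co-receptor CDON was 0.45 and 0.72, the release protein DISP1 0.50 and 0.61, and the transcription factor GLI2 0.70 and 0.90. SMO was 0.52 with dexfenfluramine and was not called, but was with 1 RUVr factor (0.53), and with surrogate variables it was -0.01. The dexfenfluramine call of GLI2 was lost in 5 of 32 other settings (0.70 to 0.83), and its pergolide value was called without pergolide replicate 3 (0.84). With surrogate variables CDON was not called for pergolide (0.29) and DISP1 was not called for dexfenfluramine (0.44).

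The tissue label was checked on cell type markers. Their symbols come from the study's list alone, so these genes too were selected on the contrasts with control, and their counts are a description. All 7 valvular interstitial markers that could be looked up were tested, VIM being the most abundant, and their sum was 8649 ± 1613 CPM (SD, n = 5) in control valves. It was 9435 ± 1299 after serotonin, 10846 ± 1620 after pergolide and 12156 ± 2460 after dexfenfluramine (SD, n = 5 each), in CPM. By valve it was 9465, 8982, 10510, 6239 and 8047 in control, 9712, 7485, 10956, 8987 and 10037 after serotonin, 9320, 10321, 9480, 12235 and 12873 after pergolide and 11389, 11707, 16445, 10240 and 10998 after dexfenfluramine. Of the 7 genes, 4 were higher with pergolide and 3 with dexfenfluramine. Of the 10 cardiomyocyte genes, 1 was lower with pergolide and 4 with dexfenfluramine, beside 28.2% and 34.1% of the tested genes with a symbol that are not members.

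Both endothelial genes, of which PECAM1 was the more abundant, were lower with pergolide, and their sum was 266 ± 77.8 CPM (SD, n = 5) in control valves and 165 ± 39.7 CPM (SD, n = 5) after pergolide. It was 296 ± 32.9 CPM after serotonin and 214 ± 35.2 CPM after dexfenfluramine (SD, n = 5 each). The 4 adipocyte genes, ADIPOQ the most abundant, summed to 37.3 ± 20.2 CPM in control valves, 79.0 ± 41.0 CPM after serotonin, 134 ± 53.6 CPM after pergolide and 61.9 ± 43.5 CPM after dexfenfluramine (SD, n = 5 each). With pergolide all 4 were called as higher, and with serotonin and dexfenfluramine the log2 fold changes of all 4 lay above 0 without being called. In dexfenfluramine replicate 3 the sum was 3.24 CPM. Of 3 smooth muscle genes, DES the most abundant, 1 was higher with pergolide, and 1 was higher and 1 lower with dexfenfluramine. Of 2 macrophage genes (C1QA the more abundant) 1 was higher with pergolide, and of 2 cycling genes (TYMS the more abundant) 1 was higher with dexfenfluramine. The erythroid list had 0 genes that could be looked up. Beside these counts, 12.1% of all tested genes were higher and 12.7% lower with pergolide, and 13.5% and 15.4% with dexfenfluramine. Of the tested genes with a symbol that are not members, 28.5% were higher and 28.2% lower with pergolide, and 32.1% and 34.1% with dexfenfluramine. Mean marker levels of several cell types differed between groups, but the selection on the contrasts with control favours such differences, and nothing is read from them. The part of these cell types in the values of the members was not tested.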

How the data were processed

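Raw read counts per Ensembl gene were deposited by the authors for 20 valves. Per the submitters' processing notes and the study's methods, reads were aligned with TopHat2 2.1.1 to the rabbit genome oryCun2, handled with Picard and counted with HTSeq. The annotation release and the strand setting were not given in the sources used here, and no sequence or coordinate of that build was at hand.

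Counts were filtered with filterByExpr, normalized by the trimmed mean of M values and fitted with edgeR 4.0.16 (quasi-likelihood, 4 groups, Benjamini-Hochberg over all 8683 tested genes, threshold 0.05) in R 4.3.3. Levels are CPM on normalized library sizes, and depth limits genes of few counts. The study's list came from limma-voom with another filter (HTSFilter), with unwanted variation sought by svaseq and RUVr. That analysis was not remade here, so calls can differ from the list. Alternatives were DESeq2 1.42.0, limma-voom (limma 3.58.1), surrogate variables (sva 3.50.0, 4 found), RUVr, other normalizations and filters, a replicate block, a threshold of 0.01 and leaving out valves. Tables and plots used Python 3.11.15, numpy 2.4.6, pandas 2.3.3 and matplotlib 3.10.9. The edgeR fit was tested on simulated counts with known changes in dexfenfluramine valves, and the other fits and counts were not.

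Symbols came from the study's list of DEGs, of which 64 members matched by identifier as printed and 11 after removal of a surplus zero, and 4 shortened identifiers were not matched (CCDC8, CCDC9B, CEP29 and DYNC111). In RefSeq (mOryCun1.1) 67 of the 75 member symbols were found. The 8 not found there, whose symbols could not be checked in this way, were TTC30A, TTC30B, DYNC112, CCDC162, CCDC58, CCDC71, TTC13 and TUBG1. Named genes were, with a mean log2 CPM of at least 1, the 2 of each role with the largest absolute log2 fold change for each drug, the 5 largest for serotonin, the 5 smallest p-values for dexfenfluramine against pergolide, and related pairs with dynactin and IFT subunits. Role, pathway and marker lists were written from textbook knowledge. The members and lists were chosen with earlier results of these data known.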

Additional observations from a re-analysis of the deposited data

Results flagged for a closer look

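In 7 of 116 groups of 5 valves examined (29 named genes in 4 groups), the valve at 1 end lay far from the others by Dixon's test on log2 levels, and chance flags about 1 in 20 groups. CCDC3 was at 0.861 CPM in dexfenfluramine replicate 1, against 2.80 to 3.79 CPM in the other valves of that group. CEP85 was at 11.7 CPM in dexfenfluramine replicate 3, against 29.4 to 37.0 CPM. DYNLRB2 was at 10.5 CPM in pergolide replicate 1, against 13.5 to 14.1 CPM. IFT122 was at 37.0 CPM in control replicate 3, against 25.6 to 28.2 CPM, and at 24.1 CPM in pergolide replicate 1, against 34.0 to 38.9 CPM. MAPRE3 was at 23.6 CPM in serotonin replicate 4, against 34.5 to 40.2 CPM. TUBA1B was at 9.46 CPM in dexfenfluramine replicate 5, against 11.7 to 12.5 CPM.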

How the results depend on the processing

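Of 5028 recomputed values of 153 log2 fold changes (those of genes given in the text or picked by the naming rule), 4613 kept their direction and side of the threshold, 309 were no longer called, 79 became called and 27 changed sign. Of the 153, 60 kept both in every setting other than the threshold of 0.01. Members called for serotonin, 1 in edgeR, numbered 2 with DESeq2 (2.69% of all tested genes were called there), 6 with 1 RUVr factor (6.23%), 5 without both replicate 3 valves (5.53%, an alternative chosen after seeing the data), and 0 with surrogate variables (1.23%), DESeq2 size factors (0.610%), upper-quartile normalization (0.852%), the most abundant gene removed (0.426%), genes unfiltered (0.349%), a floor of 10 counts in each valve (0.863%), the replicate block (0.0115%), only the 2 groups compared (0%) or a threshold of 0.01 (0%). With surrogate variables 16 were called for pergolide, 15 for dexfenfluramine, 28 for pergolide against serotonin and 20 for dexfenfluramine against serotonin, beside 13.3%, 11.4%, 17.3% and 15.9% of all tested genes, and at 0.01 27, 26, 32 and 38, beside 13.7%, 16.2%, 17.0% and 18.5%. Leaving out a valve in turn gave 0 to 3 for serotonin, 32 to 45 for pergolide, 37 to 50 for dexfenfluramine, 39 to 49 for pergolide against serotonin, 42 to 50 for dexfenfluramine against serotonin and 0 to 0 for dexfenfluramine against pergolide. The shares of all tested genes were 0% to 2.93%, 20.2% to 26.0%, 23.1% to 32.0%, 23.7% to 28.3%, 25.2% to 31.3% and 0% to 0%, in the same order. With the replicate number as a block 38 were called for pergolide and 46 for dexfenfluramine, beside 22.9% and 27.2% of all tested genes. Same-numbered valves of different groups had a median correlation of -0.017 (-0.342 to 0.492), with 6 of 30 pairs above 0.1, and the numbers were not read as a pairing. A median near 0 cannot exclude a link between single valves, which was not tested. With surrogate variables DCTN1 was 0.01 (0.0068) for pergolide and 0.02 (0.0185) for dexfenfluramine, KIF1C 0.01 (0.0065) and 0.03 (0.0339), CEP192 -0.07 (-0.0684) and -0.03 (-0.0268), and IFT122 -0.05 (-0.0462) for pergolide and 0.07 for dexfenfluramine, where its call was lost. SMO was -0.01 (-0.0115) for dexfenfluramine and KIF21A 0.10 (0.0964) for serotonin. For dexfenfluramine minus pergolide KIF21A was 0.19 (0.1869) and CCDC112 0.06 (0.0577), and KIF21A was 0.08 (0.0769) without both replicate 3 valves. With a valve left out the lowest and highest values were -0.16 (-0.1631) and 0.08 (0.0773) for KIF21A, -0.26 (-0.2557) and 0.18 (0.1836) for CCDC112, and -0.22 (-0.2203) and 0.08 (0.0846) for KIF21A with serotonin. CCDC3 for serotonin was -0.03 (-0.033) without serotonin replicate 3 and at most 0.94 (0.9416) with any other valve left out. TTC30B for pergolide was -0.02 (-0.0153) without control replicate 3, -0.08 (-0.0752) without control replicate 5, -0.00 (-0.0048) without pergolide replicate 3, -0.01 (-0.0137) without pergolide replicate 5 and -0.02 (-0.022) without both replicate 3 valves. Its highest value with a valve left out was 0.24 (0.2419). For these changes the cause was not tested.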
